A study of Rattus norvegicus with 8 samples.

Results

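The genes described here are those of the cytotoxic programme of lymphocytes: the granzymes Gzma, Gzmb, Gzmk and Gzmm, the pore protein perforin (Prf1), the granule protein Nkg7, the death ligand Fasl, the NK cell receptor chain Klrd1, and the transcription factors Tbx21 and Eomes. They were chosen by name, with the change of Gzma and Tbx21 after administration of Chios mastic gum (CMG) already known from these libraries. Of the 10 names, 9 were found among the 17446 genes counted, 8 by their symbol and Fasl as Faslg. Eomes was not analysed here.

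Whole blood of male wild type Wistar rats, aged 12 to 14 weeks, was sequenced in 8 libraries, 2 in each of 4 groups. For the AngII model, angiotensin II was infused at 0.4 mg/kg/day by osmotic minipump, and the first blood came at week 1 (before CMG) and the second at week 5, after CMG at 220 mg/kg for 4 weeks. For the DOCA–HS model, deoxycorticosterone acetate was injected at 100 mg/kg each week while the rats drank 0.9% NaCl with 1% KCl, and the first blood came at week 3 (before CMG) and the second at week 7, after 4 weeks of the same CMG dose. Both groups of a model were given the hypertensive treatment, although the minipumps are described as lasting 4 weeks, a time that had passed when the AngII blood after CMG was drawn. No library of rats kept for the same weeks without CMG was analysed here, so that a difference between after and before CMG cannot be told apart from 4 further weeks of the model.

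Cytotoxic lymphocytes, mainly NK cells and effector CD8 T cells, kill by releasing granules. Perforin opens the membrane of the target cell, granzymes are the serine proteases that enter it, and Fas ligand triggers death through the receptor Fas. Tbx21 (T-bet) and Eomes are T-box transcription factors that direct this programme in NK cells, CD8 T cells and Th1 cells.

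The deposited counts summed to between 4149104 and 13205565 per library, of which 61.9% to 84.3% fell on the hemoglobin genes. Outside those genes between 651764 and 4490083 counts remained, and the genes studied held 131 to 1172 counts of a library together. DOCA–HS after replicate 2 stood apart, with 651764 counts outside hemoglobin and 10 or more counts on 2686 genes, where the other libraries had this many on 6097 to 8280. In it a single count stood for 0.703 normalized CPM, the count relative to the library size, against 0.0554 to 0.169 elsewhere. T cell and NK cell markers were detected in the blood, with a summed level of 247 to 375 normalized CPM for 17 T cell markers and 56.4 to 108 for 22 NK receptor and adaptor genes, and the T cell markers Cd3e and Lck were above 0 in every library. The second list is not specific to NK cells, since Tyrobp, which monocytes and neutrophils also express, and Cd226, which platelets express, held 38.5% to 66.9% of its counts. Blood is a mixture of cells, so fewer cells of a type and less RNA per cell cannot be told apart.

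Levels are printed as normalized CPM, with library sizes adjusted by TMM factors. This unit does not account for transcript length, so levels are compared between libraries and not between genes. The criterion of the study was used for calls, a log2 fold change beyond 1.5 with a p no higher than 0.05 before adjustment. Because the genes were proposed from the change after CMG, that change is given as a description without p-values. The comparisons of the models use the libraries in which that change was seen, so they too are given as descriptions, with 95% intervals that show the error of the fit.

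**Figure D1:**
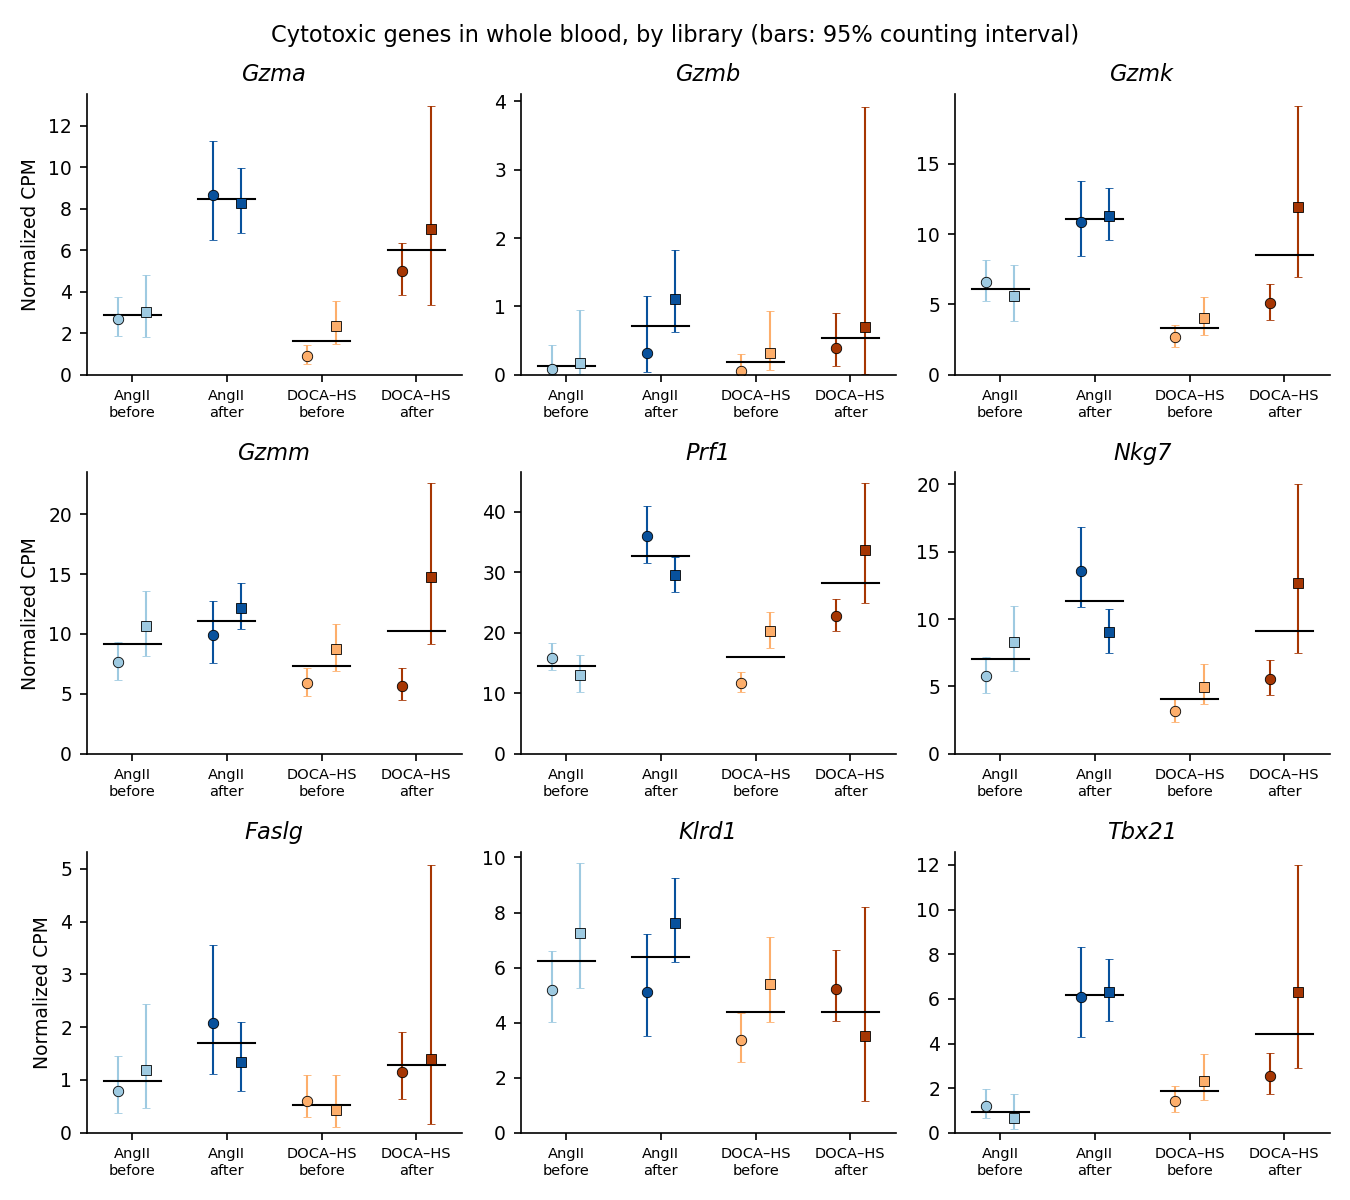
Normalized CPM of the 9 genes in each library (circle, replicate 1; square, replicate 2; black line, group mean; bars, exact 95% Poisson intervals that cover counting error only). Both libraries after CMG lie above both libraries before CMG for Gzma, Gzmb, Gzmk, Prf1, Nkg7, Faslg and Tbx21 in each model, and overlap them for Gzmm and Klrd1. After scaling to total counts, which moved the median over all genes to -0.76 there, none of the 9 genes keeps this separation among DOCA–HS libraries.

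Granzyme A mRNA was 3.01-fold higher after CMG in AngII rats and 3.69-fold higher in DOCA–HS rats, and it met the criterion of the study in both. Gzma encodes a tryptase of the granules of NK cells and T cells. In AngII rats its level was 2.67 and 3.04 normalized CPM before CMG and 8.64 and 8.28 after it, from 34 and 18 counts and from 54 and 112 counts. Both after libraries exceeded both before libraries, and their exact 95% Poisson intervals, 6.49 to 11.3 and 6.82 to 9.97, lay above those before CMG, 1.85 to 3.73 and 1.80 to 4.81. These intervals cover counting error only, and libraries sharing a group differed beyond it. The means were 2.86 ± 0.260 before and 8.46 ± 0.251 after CMG (SD, n = 2), a log2 fold change of 1.59 ± 0.30 (SE). Without AngII before replicate 1 it was 1.48 and the call was lost.

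Among DOCA–HS libraries Gzma stood at 0.886 and 2.34 normalized CPM before CMG and at 4.997 and 7.03 after it, from 16 and 22 counts and from 65 and 10 counts. The libraries after CMG were again both higher, although the interval of the one with 10 counts ran from 3.37 to 12.9. The means were 1.61 ± 1.03 and 6.01 ± 1.44 (SD, n = 2), a log2 fold change of 1.89 ± 0.59 (SE), which was 1.76 without DOCA–HS after replicate 2. It rose to 2.73 when DOCA–HS before replicate 2 was left out. Without DOCA–HS before replicate 1 it was 1.32 and the call was lost. When each library was scaled to its total counts instead of by TMM, the median over all genes moved from -0.04 to -0.76 in this model, Gzma had a log2 fold change of 1.15 and did not meet the criterion, and it stood 1.91 above that median.

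Granzyme K, a tryptase-like granzyme of memory T cells and some NK cells, moved in the same direction by a smaller amount. Gzmk was at 6.60 and 5.57 normalized CPM before CMG and at 10.9 and 11.3 after it in AngII rats, and at 2.66 and 4.04 before and 5.07 and 11.95 after it in DOCA–HS rats. In each model both after libraries exceeded both before libraries. The log2 fold changes were 0.87 ± 0.29 (SE) and 1.21 ± 0.57 (SE), below the criterion in both. The second was 0.25 with total counts, and 0.65 to 1.87 with a library left out, the highest without DOCA–HS after replicate 1, when it met the criterion. The 2 DOCA–HS libraries after CMG differed more from each other than the lower of them did from the libraries before CMG. With total counts the median over all genes was -0.76 in DOCA–HS rats, and Gzmk stood 1.01 above it.

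Granzyme M, a granzyme found mainly in NK cells, overlapped between before and after in both models. Gzmm was at 7.62 and 10.6 normalized CPM before and 9.92 and 12.2 after CMG in AngII rats, with a log2 fold change of 0.32 ± 0.31 (SE). In DOCA–HS rats it was at 5.93 and 8.71 before and at 5.69 and 14.8 after CMG, with a log2 fold change of 0.36 ± 0.57 (SE). Its sign in DOCA–HS rats depended on the scaling and on a single library, with values of -0.67 after scaling to total counts and -0.33 without DOCA–HS after replicate 2. Total counts moved the median over all genes to -0.76 in this model, and Gzmm stood 0.09 above that median.

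Granzyme B, the granzyme that cleaves after aspartate, was close to the limit of counting. Gzmb had 1 and 1 counts before and 2 and 15 after CMG in AngII rats, and 1 and 3 before and 5 and 1 after it in DOCA–HS rats. It did not pass the filter on low counts in any comparison, and no fold change is given for it. Without the filter, and without AngII after replicate 1, when it passed, Gzmb met the criterion in AngII rats, which rests on the 15 counts of 1 library. The related genes Gzmc, Gzmf and Gzmn were at 0 in every library, and the 4 granzyme paralogs counted summed to at most 0.800 normalized CPM. Since reads shared by near copies can be split or dropped in counting, the counts of Gzmb are uncertain.

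The makeup of the granzyme counts restates these levels as shares. Each share is a ratio within a library and does not depend on the scaling between libraries. Gzma made up 15.7% and 15.7% of the counts on the 4 granzymes before CMG and 29.0% and 25.2% after it in AngII rats, and 9.30% and 15.2% before and 31.0% and 20.4% after it in DOCA–HS rats. Gzmm made up 44.9% and 54.8% before and 33.3% and 37.1% after CMG in AngII rats, and 62.2% and 56.6% before and 35.2% and 42.9% after it in DOCA–HS rats. The higher share of Gzma after CMG follows from the change for which the gene was proposed. A lower share of Gzmm is not by itself a lower level of it, and its level depended on the scaling. With TMM scaling its mean was 9.13 before and 11.1 after CMG in AngII rats, with overlapping libraries. In DOCA–HS rats it was 7.32 and 10.2 normalized CPM, and the libraries overlapped too. With total counts both DOCA–HS libraries after CMG lay below both before it, with a log2 fold change of -0.67, where the median over all genes was -0.76. For DOCA–HS after replicate 2, with 49 granzyme counts, the exact 95% binomial interval (Clopper-Pearson) of the Gzma share was 10.2% to 34.3%, which includes the 15.2% of one library before CMG and not the 9.30% of the other.

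**Figure D2:**
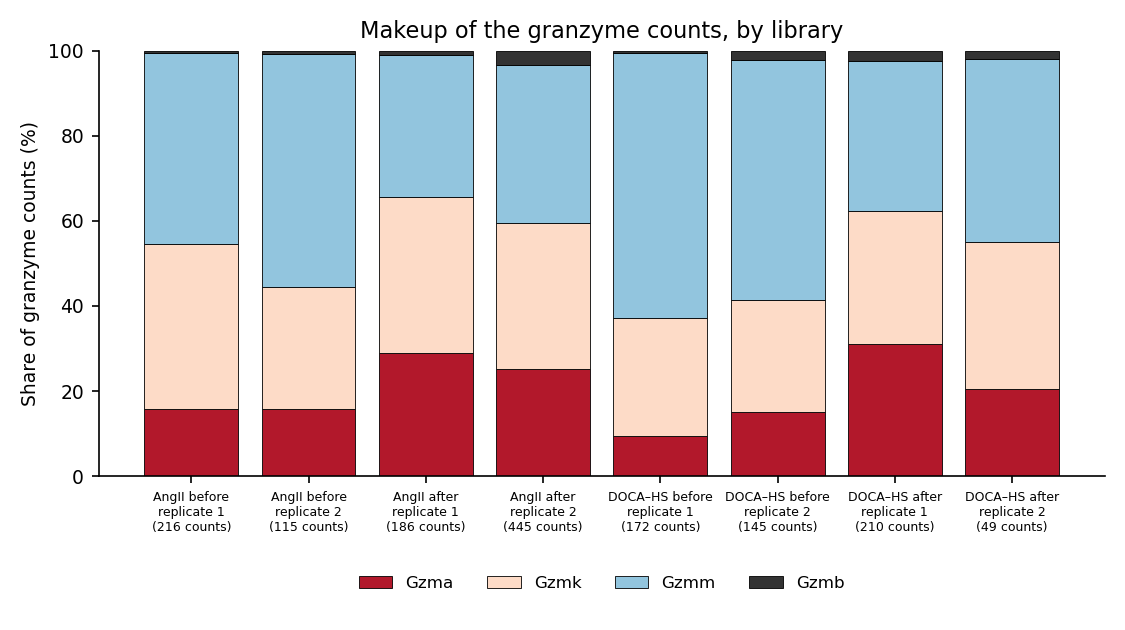
Share of each granzyme among the counts on Gzma, Gzmb, Gzmk and Gzmm, as stacked bars in percent for each library, with the number of granzyme counts under each bar. The Gzma part is 9.30% to 15.7% before CMG and 20.4% to 31.0% after it, and the Gzmm part is 44.9% to 62.2% before and 33.3% to 42.9% after.

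Perforin was higher in both libraries after CMG than in both before it in each model, and met the criterion in neither. Prf1 had the most counts of these genes, 48 to 399 in a library. In AngII rats it was at 15.9 and 13.01 normalized CPM before and at 36.0 and 29.5 after CMG, a log2 fold change of 1.19 ± 0.31 (SE), below the criterion. After scaling to total counts, with a median over all genes of 0.36 in place of -0.01, it was 1.52 and met the criterion. Among DOCA–HS libraries Prf1 was at 11.7 and 20.3 before and at 22.8 and 33.8 after CMG. The log2 fold change was 0.81 ± 0.49 (SE), and 0.47 to 1.27 with a library left out. After scaling to total counts it was -0.03, which was 0.73 above the median of all genes.

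Nkg7, a membrane protein of cytotoxic granules, was at 5.74 and 8.28 normalized CPM before and at 13.6 and 9.02 after CMG in AngII rats. In DOCA–HS rats it was at 3.16 and 4.99 before and at 5.54 and 12.7 after CMG. The groups did not overlap, but the gap between the closest libraries was small in each model. The log2 fold changes were 0.72 ± 0.34 (SE) and 1.04 ± 0.56 (SE), below the criterion. For AngII rats it was 0.35 to 1.00 with a library left out. For DOCA–HS rats it was 0.08 with total counts, which was 0.84 above the median of all genes at -0.76. With a library left out it was 0.49 to 1.67, the highest without DOCA–HS after replicate 1.

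The death ligand Faslg was measured from 2 to 18 counts in a library. In AngII rats it was at 0.786 and 1.18 normalized CPM before and at 2.08 and 1.33 after CMG. The log2 fold change was 0.82 ± 0.56 (SE), and 0.45 to 1.15 with a library left out. Among DOCA–HS libraries Faslg was at 0.609 and 0.425 before and at 1.15 and 1.41 after CMG, the last from 2 counts. It did not pass the filter on low counts there.

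Klrd1 (CD94), the chain that pairs with NKG2 receptors on NK cells and some CD8 T cells, showed overlapping groups in both models. It was at 5.19 and 7.26 normalized CPM before and at 5.12 and 7.62 after CMG in AngII rats, a log2 fold change of 0.09 ± 0.33 (SE). In DOCA–HS rats it was at 3.38 and 5.42 before and at 5.23 and 3.52 after CMG, a log2 fold change of 0.11 ± 0.49 (SE). The direction changed with the library left out, from -0.24 to 0.28 in AngII rats and from -0.28 to 0.45 in DOCA–HS rats. With total counts the log2 fold change was 0.52 in AngII rats and -0.50 in DOCA–HS rats. That scaling moved the medians over all genes to 0.36 and -0.76, and Klrd1 stood 0.15 and 0.25 above them.

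Tbx21 had the largest change of these genes in AngII rats. It was at 1.18 and 0.676 normalized CPM before CMG, from 15 and 4 counts, and at 6.08 and 6.29 after it, from 38 and 85 counts. The means were 0.927 ± 0.356 and 6.18 ± 0.147 (SD, n = 2), a log2 fold change of 2.65 ± 0.39 (SE), or 6.26-fold, and 2.35 to 3.18 with any one AngII library left out. Among DOCA–HS libraries Tbx21 was at 1.44 and 2.34 before and at 2.54 and 6.33 after CMG, the last from 9 counts, with a log2 fold change of 0.96 ± 0.61 (SE), or 0.49 without DOCA–HS after replicate 2, 1.79 without replicate 1 of that group, when it met the criterion, and 0.12 with total counts. The libraries did not overlap, but the highest before CMG and the lowest after it were close. With total counts the median over all genes was -0.76 in DOCA–HS rats, and Tbx21 stood 0.88 above it. Whether the change of Tbx21 differed between the models was not tested, since the gene was chosen for its change in AngII rats.

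Across the genes, those called after CMG were 2 of the 8 tested in AngII rats, Gzma and Tbx21, where 0.903% of all 7201 genes tested were called higher and 0.333% lower. In DOCA–HS rats 1 of the 7 tested was called, Gzma, where 1.79% of 7720 genes were called higher and 0.259% lower. Both libraries after CMG lay above both libraries before it for 6 of the 8 in AngII rats, against 21.3% of all genes, and for 5 of the 7 in DOCA–HS rats, against 14.7%. After scaling to total counts, 7 of the 8 lay above in AngII rats and 0 of the 7 in DOCA–HS rats, where Gzmm lay below and the others overlapped. That scaling moved the medians over all genes to 0.36 and -0.76. The percentages above are for TMM scaling, and no share over all genes is given for total counts. Tbx21 and Faslg passed the filter on low counts in AngII rats only through the libraries after CMG, where they are high. These counts describe the contrasts from which the genes were proposed, and nothing is read from them. The median log2 fold change was 0.84 in AngII rats and 0.96 in DOCA–HS rats, beside medians of -0.01 and -0.04 over all genes tested.

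**Figure D3:**
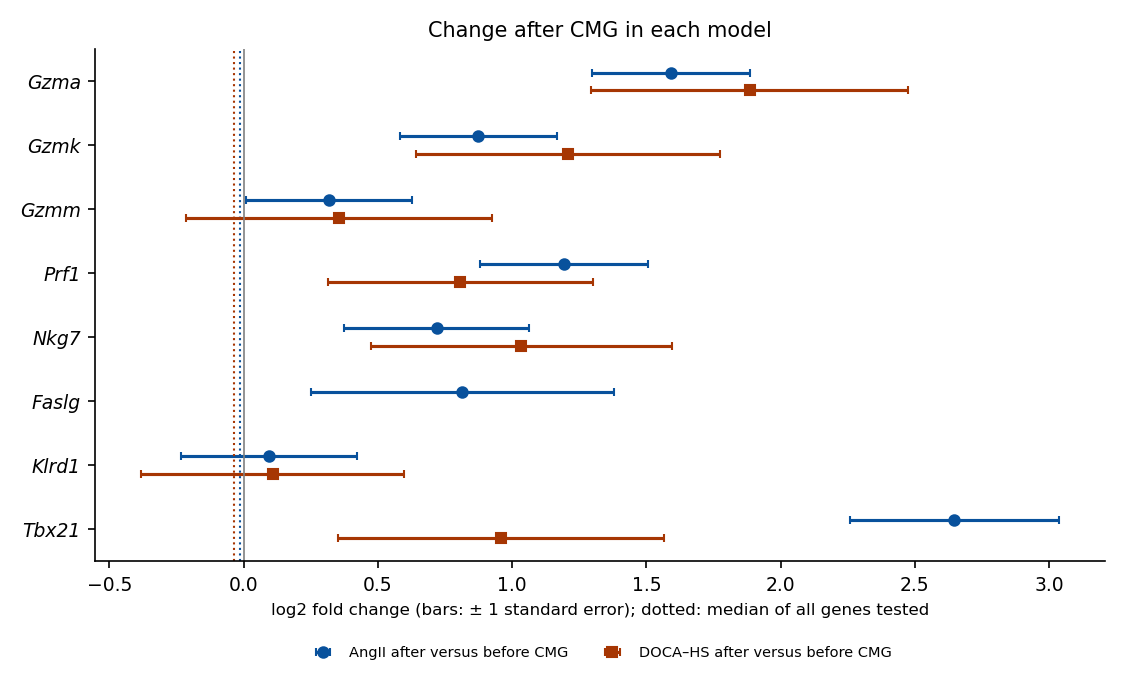
Log2 fold change after against before CMG for each gene that passed the filter on low counts (circles, AngII model; squares, DOCA–HS model; bars, ± 1 standard error; dotted lines, median over all genes tested). Gzma lies at 1.59 and 1.89, Tbx21 at 2.65 and 0.96, and Klrd1 at 0.09 and 0.11.

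The levels were also set against the T cell markers of the same library, which removes the scaling between libraries. Per 1000 counts of the T cell markers, Gzma had 8.08 and 8.21 counts before and 35.0 and 26.9 after CMG in AngII rats, and 2.37 and 6.50 before and 17.8 and 26.5 after it in DOCA–HS rats. Prf1 had 48.0 and 35.1 before and 146 and 95.9 after CMG in AngII rats, and 31.4 and 56.5 before and 81.1 and 127 after it in DOCA–HS rats. Tbx21 had 3.56 and 1.82 before and 24.6 and 20.4 after CMG in AngII rats, and 3.85 and 6.50 before and 9.04 and 23.8 after it in DOCA–HS rats. By this ratio the after libraries of all 9 genes lay above the before libraries in AngII rats, and those of Gzmm and Klrd1 were the ones that overlapped in DOCA–HS rats. No share over all genes is given for this ratio, which a lower sum of T cell markers raises for every gene. The summed T cell markers themselves were at 331 and 370 normalized CPM before and at 247 and 308 after CMG in AngII rats, and at 375 and 359 before and 281 and 266 after it in DOCA–HS rats.

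Against the NK receptor and adaptor genes of the same library, Gzma was separated in both models and several other genes overlapped. Per 1000 counts of those 22 genes, Gzma had 32.4 and 53.9 counts before and 81.2 and 101 after CMG in AngII rats, and 12.3 and 28.4 before and 46.4 and 73.5 after it in DOCA–HS rats. Klrd1 had 62.9 and 129 before and 48.1 and 93.2 after CMG in AngII rats by the same ratio, so that its libraries overlapped. Prf1 had 192 and 231 before and 338 and 361 after CMG in AngII rats, and 163 and 246 before and 211 and 353 after it in DOCA–HS rats. Tbx21 had 14.3 and 11.98 before and 57.1 and 76.9 after CMG in AngII rats, and 19.97 and 28.4 before and 23.6 and 66.2 after it in DOCA–HS rats. Both were thus separated in AngII rats and overlapped in DOCA–HS rats, as did Gzmk, while Nkg7 overlapped in both. Since much of this denominator comes from genes that other cells share, it is not a level of NK cells, whose part in these results was not tested. Per 1000 counts of the list without Tyrobp and Cd226, a ratio chosen after the values were seen, Gzma had 74.1 and 106 before and 162 and 165 after CMG in AngII rats, and 22.7 and 65.3 before and 109 and 222 after it in DOCA–HS rats.

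**Figure D4:**
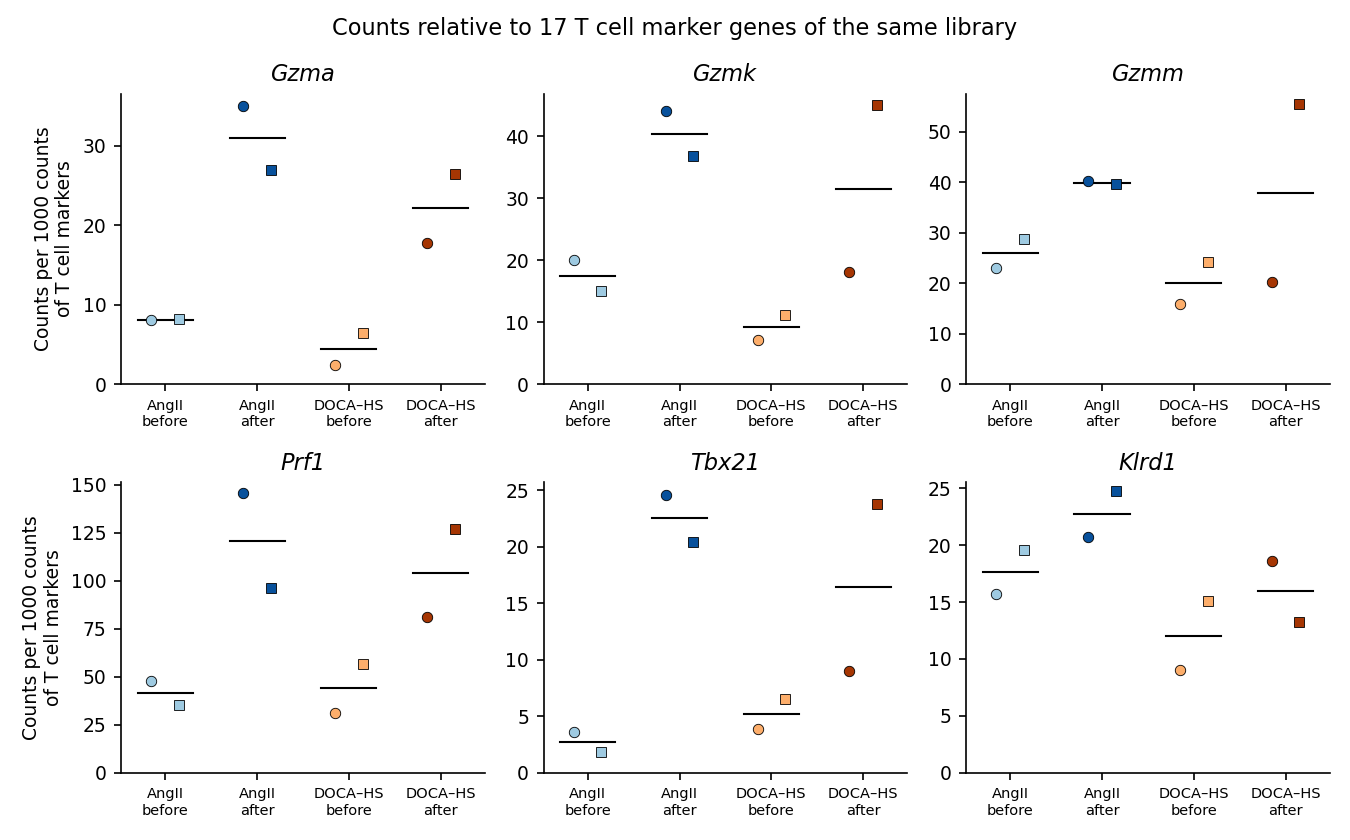
Counts of 6 genes per 1000 counts of 17 T cell markers in the same library (circle, replicate 1; square, replicate 2; line, group mean). Gzma goes from 8.08 and 8.21 to 35.0 and 26.9 in AngII rats, while Klrd1 overlaps between 9.02 and 18.6 in DOCA–HS rats.

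The sequences upstream of these genes were searched for letters bound by factors of the lymphocyte programme. RefSeq promoters on the GRCr8 build, taken as the 250 bases before the start of the gene, were found for 8 of the 9 genes, without Klrd1. The RUNX letters TGTGGT, on either strand, were present in 6 of the 8, Gzma, Gzmb, Gzmk, Gzmm, Prf1 and Nkg7, against 14.5% of the 33469 promoters in the table. All 6 encode proteins of the cytotoxic granule. The promoters of Faslg and Tbx21 did not hold these letters, and whether the letters mark granule genes was not tested. The T-box letters GGTGTG were present in 2 of the 8, Gzmk and Gzmm, against 15.4% of promoters, the AP-1 letters TGANTCA in 1, Gzmb, against 6.34%, and the ETS letters AGGAAG in 3, Prf1, Nkg7 and Faslg, against 29.5%. A match of letters is a description and not a binding site.

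The promoter of Gzma (chr2:46485697-46485946, minus strand, with 46.4% G and C) is shown because Gzma was called in both models. Its RUNX letters, read on the opposite strand as ACCACA and given in capitals, lie 46 to 51 bases before the start.
Gzma: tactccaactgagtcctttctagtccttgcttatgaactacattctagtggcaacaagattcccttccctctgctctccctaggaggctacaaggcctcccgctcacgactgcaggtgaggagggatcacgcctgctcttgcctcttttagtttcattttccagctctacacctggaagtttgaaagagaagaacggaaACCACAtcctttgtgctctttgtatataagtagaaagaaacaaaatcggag

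Windows of 60 bases around the RUNX letters nearest the start, in capitals, are shown for the other granule genes, so that the bases around a shared motif can be compared. They are Gzmb (chr15:34462564-34462623, minus strand), Gzmk (chr2:46582163-46582222, minus strand), Gzmm (chr7:10667318-10667377, minus strand), Prf1 (chr20:29788879-29788938, plus strand) and Nkg7 (chr1:102981364-102981423, plus strand).
Gzmb: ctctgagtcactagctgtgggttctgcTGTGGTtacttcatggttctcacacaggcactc
Gzmk: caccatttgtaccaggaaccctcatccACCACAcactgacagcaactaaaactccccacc
Gzmm: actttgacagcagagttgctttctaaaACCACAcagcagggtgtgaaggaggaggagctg
Prf1: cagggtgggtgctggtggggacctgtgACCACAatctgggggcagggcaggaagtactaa
Nkg7: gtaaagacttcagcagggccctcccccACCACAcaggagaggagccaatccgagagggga
Gzmb held 3 copies of the RUNX letters, and each of the other genes held 1. The letters read in the direction of the gene in the copy shown for Gzmb, and on the opposite strand in the others. Whether the letters bear on the changes after CMG was not tested.

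The promoter of Tbx21 (chr10:82595254-82595503, minus strand), the gene with the largest change in AngII rats, held none of the 4 motifs in these 250 bases and was richer in G and C, at 64.0%. It is shown in lower case throughout.
Tbx21: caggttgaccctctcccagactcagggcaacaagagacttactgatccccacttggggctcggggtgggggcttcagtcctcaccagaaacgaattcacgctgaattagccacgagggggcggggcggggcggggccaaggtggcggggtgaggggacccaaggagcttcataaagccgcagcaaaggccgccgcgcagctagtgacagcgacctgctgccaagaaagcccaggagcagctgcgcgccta

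The models were then compared with each other before and after CMG. Each of these comparisons holds the AngII libraries in which Tbx21 and Gzma were low before or high after CMG, which bore on the choice of the genes, so that nothing is tested with them. Before CMG 0 of the 8 genes that passed the filter met the criterion between the DOCA–HS and the AngII model, where 0.425% of 7994 genes were called higher and 0.413% lower. Gzma was 2.86 ± 0.260 normalized CPM in the AngII and 1.61 ± 1.03 in DOCA–HS rats (SD, n = 2), a log2 difference of -0.89 with a 95% interval from -1.96 to 0.17. Tbx21 went the other way, 0.927 ± 0.356 against 1.89 ± 0.634 (SD, n = 2), with a log2 difference of 0.89 and an interval from -0.31 to 2.10. With total counts this difference was 1.65 and not called, and with total counts outside the hemoglobin genes it was 1.60 and met the criterion. Both DOCA–HS libraries lay below both AngII libraries for 4 of the 8, Gzma, Gzmk, Nkg7 and Faslg, against 21.2% of all genes, and above them for Tbx21, 1 of the 8, against 24.3%. This count depended on the scaling, since with total counts those 4 overlapped, 0 of the 8 lay below, and Gzmm, Prf1, Klrd1 and Tbx21 lay above. Total counts moved the median of all genes to 0.86, and the shares over all genes are given for TMM scaling only.

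The other differences before CMG were of similar or smaller size. Gzmk had a log2 difference of -0.89 (-1.86 to 0.08), Faslg of -0.81 (-2.16 to 0.54), Nkg7 of -0.78 (-1.82 to 0.25), Klrd1 of -0.50 (-1.39 to 0.38), Gzmm of -0.32 (-1.33 to 0.70) and Prf1 of 0.14 (-0.76 to 1.05). Their median was -0.64, beside 0.06 over all genes. The directions of Gzmm and Klrd1 turned when the libraries were scaled to total counts, to 0.44 and 0.24, which moved the median of all genes to 0.86. The difference of Gzma depended on single libraries and on the scaling, since it was -1.72 without DOCA–HS before replicate 2, when it met the criterion, -0.25 without replicate 1 of that group and -0.18 with total counts.

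After CMG 0 of the 8 met the criterion either, where 1.09% of 7994 genes were called higher and 0.313% lower. All 8 log2 differences were below 0, with a median of -0.46 beside -0.04 over all genes. Tbx21 was 6.18 ± 0.147 normalized CPM in the AngII and 4.43 ± 2.68 in DOCA–HS rats (SD, n = 2), a log2 difference of -0.80 with an interval from -1.91 to 0.31. Gzma had a difference of -0.58 (-1.59 to 0.42), and with TMM scaling it was the only one of the 8 for which both DOCA–HS libraries lay below both AngII libraries, against 15.9% of all genes. With total counts 7 of the 8 lay below, and Klrd1 overlapped. Total counts moved the median of all genes to -0.35, and no share over all genes is given for that scaling. The lower ends of all 8 intervals lay under -1, so a level more than 2-fold lower in DOCA–HS rats lay within the interval of each. Without DOCA–HS after replicate 1 the differences of Gzmk, Gzmm, Prf1, Nkg7 and Tbx21 turned to 0.086, 0.39, 0.022, 0.15 and 0.013.

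**Figure D5:**
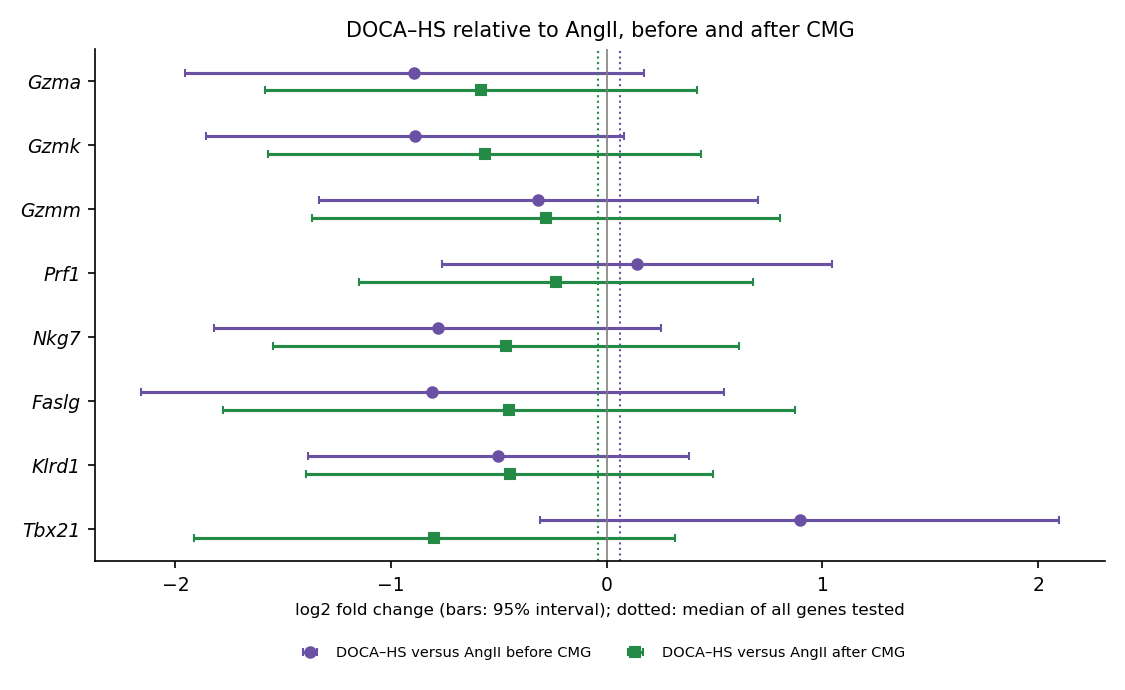
Log2 difference of the DOCA–HS from the AngII model before (circles) and after (squares) CMG, with 95% intervals from edgeR's fit over all 8 libraries and dotted lines at the median over all genes tested. Every interval includes 0. Tbx21 lies at 0.89 before and at -0.80 after CMG.

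The 4 comparisons share libraries, so values for one gene in several of them are not independent. The genes most alike to Gzma in level over the 8 libraries, among 7402 genes with enough counts (10 on average) and by Pearson's r, were Il2rb at 0.93, Gzmk at 0.92, Lmf2 at 0.92, Prf1 at 0.90 and Trip6 at 0.89. Il2rb, a subunit of the receptors for IL-2 and IL-15, was at 11.4 and 13.2 normalized CPM before and at 25.1 and 21.7 after CMG in AngII rats, and at 9.58 and 14.4 before and 15.3 and 23.9 after it in DOCA–HS rats. Those most alike to Tbx21 were Klri1 at 0.95, Prf1 at 0.94, Grwd1 at 0.92, Ywhag at 0.91 and Trim11 at 0.91. The points share the libraries, their depth and their groups, and no test was made.

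Of the receptors of NK cells, some with few counts were higher after CMG in AngII rats. Of 24 genes of NK receptors and adaptors, 22 were counted and 11 were tested. In AngII rats 3 of the 11 met the criterion after CMG, all higher, where 0.903% of all genes tested were called higher. These 3 genes, Cd244, Klrb1a and Klri1, had 3 to 9 counts in the libraries before CMG and 10 to 40 after it, and they passed the filter on low counts only through the after libraries, so that nothing is read from their number. Cd244 (2B4), a SLAM family receptor, was at 0.707 and 0.845 normalized CPM before and at 3.20 and 2.96 after CMG in AngII rats, a log2 fold change of 2.01 ± 0.45 (SE). Klrb1a, a lectin-like NK receptor, had 1.77 ± 0.68 (SE), and Klri1, an inhibitory lectin-like receptor, 1.77 ± 0.54 (SE). Among DOCA–HS libraries 0 of the 11 met it, with values of 0.48, 0.53 and 0.44 for the same genes. The median over the 11 was 0.55 in the AngII and 0.44 in DOCA–HS rats. Of the 3 with the most counts, Tyrobp (DAP12) had 0.41 and 0.60, Cd226 (DNAM-1) -0.30 and 0.83, and Klrk1 (NKG2D) 0.39 and -0.59. Cd226, which platelets also express, was at 23.7 and 3.55 normalized CPM before and at 19.8 and 3.25 after CMG in AngII rats, so that it differed between replicates more than between groups. Between the models 0 of the 11 met the criterion before or after CMG.

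Of the genes of granule assembly and release, 0 of 13 tested met the criterion after CMG in each model. Of all genes tested, 0.903% were called higher and 0.333% lower in AngII rats, and 1.79% and 0.259% in DOCA–HS rats. A count of 0 among so few genes therefore says little, here and in the lists that follow. Calreticulin (Calr), serglycin (Srgn) and Lamp1 had the most counts, with log2 fold changes of -0.34, -0.01 and -0.11 in AngII rats and of 1.13, 0.32 and 0.64 in DOCA–HS rats. The medians were -0.01 and 0.27. The 3 genes named are expressed in many blood cells.

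Cytokine receptors and their signalling partners, through which IL-2, IL-12 and IL-15 act, met it in 0 of 11 tested in the AngII and 0 of 12 in DOCA–HS rats, with medians of 0.25 and -0.30. Jak1 and Il2rg had log2 fold changes of 0.12 and 0.16 in AngII rats and of -0.82 and -0.66 in DOCA–HS rats. Lymphocyte transcription factors other than Tbx21 met it in 0 of 12 in each model, with medians of -0.09 and -0.76. Ets1, Id2 and Lef1, the 3 with the most counts, had -0.21, -0.33 and -0.11 in AngII rats and -0.97, -0.33 and -0.99 in DOCA–HS rats. Of the 12, 4 lay above 0 in AngII rats and 3 in DOCA–HS rats, beside 49.0% and 47.5% of all genes tested.

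Of the effector cytokines and chemokines 3 were tested and 0 met the criterion after CMG in either model. Ccl5 (RANTES), a chemokine of memory T cells, NK cells and platelets, was at 30.6 and 23.3 normalized CPM before and at 69.9 and 29.3 after CMG in AngII rats, and at 21.4 and 20.7 before and 43.1 and 50.6 after it in DOCA–HS rats. Its log2 fold changes were 0.89 ± 0.45 (SE) and 1.15 ± 0.45 (SE). Ccl3 had 0.03 and -0.94, and Ccl4 0.96 and -0.19. After CMG Ccl4 was at 6.08 and 1.41 normalized CPM in AngII rats and at 0.923 and 0 in DOCA–HS rats, and it met the criterion as lower in the latter, with a fitted log2 difference of -2.16 that depends on the prior count. In the library at 0, 3 counts, the limit that a count of 0 allows, were 2.11 normalized CPM, above one of the AngII libraries. Tnf and Csf2 were at 0 in every library.

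Of the genes that granzymes and Fas ligand act on, including Fas and Bid, 0 of 11 tested met the criterion in each model, with medians of 0.39 and -0.06. Hmgb2 and Bid had log2 fold changes of -0.58 and -0.04 in AngII rats and of -0.06 and -0.59 in DOCA–HS rats.

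Markers of blood cell types were compared in the same fits. T cell markers met the criterion in 0 of 17 in each model. A log2 fold change above 0 was found for 4 of 17 in the AngII and 1 of 17 in DOCA–HS rats, with medians of -0.29 and -0.36. Over all genes tested 49.0% and 47.5% were above 0, with medians of -0.01 and -0.04. Cd8a, a chain of the CD8 coreceptor, was at 24.3 and 26.4 normalized CPM before and at 19.0 and 25.0 after CMG in AngII rats, with log2 fold changes of -0.18 and -0.35 in the 2 models, and Lck and Cd3e had -0.40 and -0.48 in the AngII and -0.68 and -0.89 in DOCA–HS rats. After scaling to total counts 12 of 17 had a value above 0 in AngII rats, with a median of 0.10, and 0 of 17 in DOCA–HS rats, with a median of -1.15. That scaling moved the medians over all genes to 0.36 and -0.76. Relative to these, the medians of the T cell markers were -0.26 and -0.39. Their sign against 0 in AngII rats thus depended on the scaling, while their median lay below that of all genes with either scaling.

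The other cell types are given for comparison, and their part in these results was not tested. Of all genes tested, 0.903% were called higher and 0.333% lower in AngII rats, and 1.79% and 0.259% in DOCA–HS rats. Monocyte markers had medians of 0.72 and 0.40 with 0 of 7 called in each model, and Lyz2, Csf1r and Cd68 had 0.23, 1.20 and 0.72 in AngII rats. B cell markers had medians of 0.42 and -0.84 with 0 of 8 called. Neutrophil markers had medians of -0.22 and -0.18, with 1 of 8, Ngp, called lower in DOCA–HS rats at -3.27. Platelet markers had medians of -0.32 and 1.01, with Pf4 at 1.72 and Treml1 at 1.92 called higher in DOCA–HS rats, 2 of 6, and their summed level was 60.4 to 646 normalized CPM in the AngII libraries. Erythroid markers had medians of -0.47 and 0.51 with 0 of 6 called, plasmacytoid dendritic cell markers medians of 0.14 over 2 and -0.62 over 3 with 0 called, and of the basophil and mast cell markers only Hdc was tested, at -0.01 and -1.29, not called.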

How the data were processed

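Whole blood RNA was sequenced in 8 libraries, 2 for each model at each of the times before and after CMG administration. The authors sequenced single-end reads from directional libraries, aligned them to rn6 with HISAT2, counted them per gene by strand with HTSeq 2.0.3 and deposited raw counts, without normalization. They state that hemoglobin annotation was removed, while hemoglobin genes are the most abundant in the deposited counts. Of 17446 genes, 5754 had no count, and 0 other columns of values were found. The labels give cardiac puncture with heparin.

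The members and gene lists (15 lists, 166 genes) were chosen with earlier results of these data known. The genes named are the members, the 3 genes of each list with the most counts among those tested and any that met the criterion, and the 5 genes most alike to Gzma and to Tbx21. Of the genes that this names, 2 are not reported here.

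The counts of each model's 4 libraries were fitted alone, after against before CMG, with edgeR 4.0.16 in R 4.3.3 (filterByExpr, TMM, estimateDisp, glmQLFit, glmQLFTest). The models were compared in 1 fit over 8 libraries with 4 group means. The p-values were adjusted with Benjamini-Hochberg over all genes tested. Normalized CPM used TMM factors over the 8 libraries (0.343 to 1.88), and log2 CPM a prior count of 2. In these tests 0 genes had an adjusted p-value under 0.05 in any comparison (edgeR), while 479, 245, 270 and 223 passed a p of 0.05 before adjustment in the AngII, the DOCA–HS, the before and the after comparison, and DESeq2 1.42.0 called 3, 0, 2 and 1 after adjustment. Libraries sharing a group differed beyond counting error (chi-square per degree of freedom 11.3 to 26.6). Nothing states that the libraries of a group came from separate rats, so p-values measure the spread between these libraries, which may be technical. Poisson and binomial intervals cover counting error only. The computation was tested on simulated counts. Promoter sequences are those of RefSeq on GRCr8, used for sequence only.

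The alternatives were DESeq2 as test or for size factors, total counts with and without hemoglobin, no filter, a minimum of 10 counts per library, the replicate number as a block, a log2 threshold of 1, fits over other sets of libraries, and each library left out.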

Additional observations from a re-analysis of the deposited data

How the results depend on the processing

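With the criterion of the study, 2 of these genes were called in AngII rats and 1 in DOCA–HS rats. A log2 threshold of 1 gave 3 in AngII rats, with Prf1 added, and 1 in DOCA–HS rats. Total counts, with or without the hemoglobin genes, also gave 3 in AngII rats, with Prf1 added. With at least 10 counts required in every library, 1 was called in AngII rats, since Tbx21, with 4 counts in AngII before replicate 2, was no longer tested. Leaving out each library gave 1 to 3 calls there (Gzma was lost without AngII before replicate 1), and Gzmb was the third call without AngII after replicate 1 and with no filter on low counts. In DOCA–HS rats total counts, with or without the hemoglobin genes, gave 0 calls, and leaving out each library gave 0 to 4, with 0 without DOCA–HS before replicate 1 and 4 (Gzma, Gzmk, Nkg7 and Tbx21) without DOCA–HS after replicate 1, when the group after CMG is the shallowest library, assumed to vary like the others, and 1173 of all genes had an adjusted p-value under 0.05 (edgeR's quasi-likelihood test). Between the models before CMG, total counts outside the hemoglobin genes gave 1 call, Tbx21, and leaving out each library 0 to 1. After CMG every alternative gave 0 calls.

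Some differences between the models turned direction. Before CMG, Gzmm was 0.44 and Klrd1 0.24 with total counts, and 0.38 and 0.19 outside the hemoglobin genes. These scalings moved the median of all genes to 0.86 and 0.78. Prf1 ranged from -0.36 (without DOCA–HS before replicate 2) to 0.51 as libraries were left out. After CMG the values with a library left out ran from -1.13 to 0.086 for Gzmk, -0.97 to 0.39 for Gzmm, -0.52 to 0.022 for Prf1, -1.01 to 0.15 for Nkg7 and -1.28 to 0.013 for Tbx21, lowest without DOCA–HS after replicate 2 and highest without replicate 1 of that group. The causes were not tested. Over the alternatives other than the log2 threshold, which moves no value, 165 of 176 changes after CMG were above 0, the others being of Gzmm, Klrd1 and Prf1, and 150 moved by less than the replicate spread. Between the models 247 of 257 differences kept their direction.

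Deviations of libraries with the same replicate number correlated across genes at 0.47 in AngII rats and 0.32 in DOCA–HS rats, at 0.05 between the models before and -0.15 after CMG. With the replicate number as a block, 2, 1, 0 and 0 of these genes were called in the 4 comparisons, and 165 of all genes in AngII rats fell under an adjusted p of 0.05 (edgeR). With crossed numbers after CMG, chosen after seeing the data, 0 were called. The labels do not say that a number marks a rat. Depth limits Gzmb, Faslg and all values of DOCA–HS after replicate 2, where 3 counts, the limit that a count of 0 allows, are 2.11 normalized CPM.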
